A study of Mus musculus with 12 samples.

Results

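ORFtag is a gene-tagging method in which a retroviral cassette carries a strong promoter, a tag and a splice donor. An integrated cassette drives a transcript that splices into the next acceptor downstream, so the tag is fused to whatever the gene encodes from that exon on. When the acceptor belongs to the second exon, nearly the whole protein is kept, whereas an acceptor later in the coding sequence gives a shorter protein that lacks its amino-terminal part. The insertions described here were assigned to exon 4 or later of a protein-coding gene and lay 2001 to 50000 bp upstream of that exon, in the orientation that allows splicing. They were found as unique combinations of chromosome, coordinate and strand in 12 insertion lists. In what follows, exon 4 or later stands for this class with its distance limits. There were 74878 such positions, 6.58% of the 1137865 positions listed within 200 kb of an assigned exon and a smaller part of the 1543170 positions listed in all.

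All libraries came from mouse embryonic stem cells of a diploid line derived from the originally haploid AN3-12 line, grown without feeders in serum with LIF, carrying a reporter and transduced with a mixture of cassettes for all 3 reading frames. The activator screen used a TetR tag and a clonal line with TetO sites upstream of a minimal MYLPF promoter driving GFP, and GFP-positive cells were sorted. The repressor screen used the same tag and a clonal line with TetO sites at a GFP reporter that is always active, and GFP-negative cells were sorted. The screen for posttranscriptional gene regulatory (PTGR) proteins used a λN tag and a clonal line with boxB sites in the 3′ untranslated region of a randomly integrated GFP reporter, and cells were taken through repeated sorts for low GFP with a last sort for recovered GFP after Cre had removed the boxB sites. Each screen had 2 sorted and 2 unsorted libraries, and all cells of all groups carried an integrated cassette and had been selected with G418. The 6 unsorted libraries served as a shared background for all 3 screens, so the screens were not independent of each other on that side.

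The libraries held 14705 to 60980 sorted and 54088 to 233799 unsorted insertions within 200 kb, of which 929 to 4708 and 3301 to 15528 fed exon 4 or later at 2 to 50 kb. Libraries were not free of each other's positions. The sorted repressor replicates shared 279 positions of this class, which was 18.0% of replicate 1 and 30% of replicate 2. Sorted activator replicate 2 shared 19.5% of its positions with unsorted activator replicate 2, and sorted PTGR replicate 1 shared 16.9% with unsorted PTGR replicate 1. The lists gave no read number per insertion, so each position counted once and the number of cells behind it was unknown.

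The positions fell on 5985 genes. The distance to the assigned exon had a median of 6665 bp with quartiles of 3540 and 14465 bp, and 64.0% of the positions lay within 10 kb. The assigned exon was exon 4 for 16767 positions (22.4%) and exon 5 for 11026, with a median exon number of 7 and a highest number of 176. In the same distance window 493006 positions fed exon 2 and 33172 fed exon 3. Positions close to the lower distance limit were common, with 1657 in the 100 bp just under it and 1521 in the 100 bp just over it, whereas the upper limit passed through a thin tail of 175 positions in the last 1000 bp and 184 in the next 1000 bp. A further 57831 positions fed exon 4 or later from within 2 kb, and 7175 from 50 to 200 kb.

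Retroviral insertions of this type are known to favour the neighbourhood of transcription start sites, and the genome offers much intron sequence in front of later exons. GENCODE models placed 313.8 Mb of the mouse genome within 2 to 50 kb upstream of an acceptor of exon 4 or later with no nearer acceptor, and 791.8 Mb in front of exon 2 or 3. The 6 unsorted libraries together held 210.7 insertions per Mb in the former and 595.1 insertions per Mb in the latter. Most positions, 96.9%, lay in the intron that directly precedes the assigned exon, and this intron had a median length of 15763 bp.

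How much of a protein such a fusion would keep differed widely. Over the 74700 positions whose exon was found in the gene models, the median share of coding sequence upstream of the assigned exon, and so lost from a fusion, was 49.8%. For 3.60% of positions no coding sequence lay upstream. At most 10% of the coding sequence lay upstream for a further 6.52%, 10 to 50% for 40.1%, more than 50% for 48.7%, and all of it for 1.06%. Exon numbers depend on the transcript: the assigned exon was also exon 2 or 3 of another transcript of the gene for 19.9% of positions.

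Insertions were spread over many genes with few positions each. The median gene had 3 positions and 1866 genes had 1, whereas 125 genes with at least 100 positions held 29.6% of the total. The genes with the most such insertions in the unsorted libraries were Etl4 (607), Pfdn1 (423), Myo10 (407), Morc1 (372) and Pced1b (328). Some of these genes gave most of their insertions to 1 acceptor. In Myo10, an unconventional myosin, 388 of the 407 insertions lay upstream of an exon that is number 20 in one transcript and number 2 in another. In Pfdn1, a subunit of the prefoldin chaperone, all 423 lay upstream of exon 4, the last exon. Apart from Morc1 these genes were called in no screen. Etl4 had 4.60 and 4.08 insertions per 10000 in the sorted activator replicates, 1.80 and 1.97 in the sorted repressor replicates and 6.72 and 8.03 in the sorted PTGR replicates, against 5.30 to 6.80 in the unsorted libraries. Its sorted activator and repressor values lay below all unsorted libraries, as did those of Pfdn1. In the sorted repressor replicates Myo10 (2.25 and 1.97 against 2.70 to 4.96) and Pced1b (0.898 and 1.97 against 2.77 to 3.56) did so too. In the activator screen Myo10 and Pced1b overlapped the unsorted libraries. A single position was rarely hit more than once, and 94.7% of positions occurred in 1 library. Only 6 positions occurred in 6 or more libraries, and these were all in the Morc1 intron before exon 21, between 48607670 and 48609715 of chromosome 16 (GRCm38).

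The acceptors that received most of the sorted insertions of the leading genes are shown to make concrete where the tag would join. Each sequence holds the last 20 intronic and the first 10 exonic bases on the gene's strand from GRCm38.p6, in lower case with the invariant AG at the end of the intron in capitals.
Bicral exon 5, chr17:46814029-46814058, minus strand: cttggctctttgttctacAGgctcagaaga
Mtf1 exon 8, chr4:124831099-124831128, plus strand: aggacttttttctttcacAGgatacaaatc
Mrtfb exon 4, chr16:13378244-13378273, plus strand: caactctttcctttctacAGtgctccagct
Morc1 exon 21, chr16:48612269-48612298, plus strand: atgtagaacttgtttttcAGgtttgggatc
Zmiz1 exon 7, chr14:25635853-25635882, plus strand: ccatctgtctttgcttgcAGccctgctgtc
Esrrb exon 4, chr12:86505795-86505824, plus strand: atatctttcttgtctgacAGgtgtgcgcct
Pde9a exon 5, chr17:31443146-31443175, plus strand: ttctcttcttcggtttgtAGaacgagaaga
Tnrc6b exon 5, chr15:80858661-80858690, plus strand: catgtcatttctttttacAGagagaaggag
All 8 have a run rich in C and T before the AG, with 10 (Morc1) to 14 (Mrtfb and Pde9a) such bases among the 17 that precede the last intronic triplet, against a median of 13 over 12253 acceptors of this class. Of these 12253 acceptors, 99.8% had AG at this place.

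The first comparison asked whether sorting changed the weight of exon 4 or later insertions as a whole. Their share among insertions within 200 kb was 7.19% and 6.62% in the sorted activator replicates against 6.52% and 6.40% unsorted. In the repressor screen it was 6.96% and 6.11% sorted against 6.43% and 6.43% unsorted. In the PTGR screen it was 7.72% and 6.42% sorted against 6.64% and 6.10% unsorted. Sorted libraries lay above their unsorted counterparts only in the activator screen, and the other screens overlapped. Averaged over the screens the sorted share was 0.414 percentage points higher, with a two-sided p of 0.176 in an exact permutation test that exchanged libraries within screens. With 2 against 2 libraries a single screen could not go below an exact p of 0.333, and the 3 screens together could not go below 0.00926. The Wilson 95% intervals for single libraries, which cover counting error only, ran from 6.81 to 7.58% for sorted activator replicate 1 and from 5.74 to 6.50% for sorted repressor replicate 2. With 1 library left out the difference ranged from 0.197 percentage points (without sorted PTGR replicate 1) to 0.631 (without sorted PTGR replicate 2). Without Morc1, an exclusion that was not planned, it was -0.0821 percentage points.

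The median distance to the assigned exon was lower in the sorted libraries, by amounts that differed between screens. The median distance was 5940.5 and 5760 bp in the sorted activator replicates, 4979 and 4728 bp in the sorted repressor replicates, and 6579 and 6617 bp in the sorted PTGR replicates. The 6 unsorted libraries lay between 6627 and 6853 bp, above all 6 sorted ones. The mean difference of sorted minus unsorted medians over the screens was -953 bp, at the smallest two-sided p the exact permutation test can give, 0.00926, which became 0.0741 after Benjamini-Hochberg adjustment over 8 library measures. By screen the difference was -840 bp (activator), -1798.5 bp (repressor) and -220.5 bp (PTGR). Without Morc1, an exclusion that was not planned, the mean difference was -578 bp (exact permutation p 0.0463, not adjusted). Insertions 2 to 5 kb from the exon made up 50.5% and 53.5% of the sorted repressor replicates and 38.7 to 39.3% of the unsorted libraries. When the genes called in any screen were left out, the sorted median was 165 bp higher. These genes were chosen from the same sorted libraries, so this value is no separate test.

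The reversed orientation gives a control, since a cassette pointing away from the gene cannot splice into it. Among positions that met the same exon and distance limits on either strand, 60.8% and 67.5% lay in the splicing orientation in the sorted activator replicates. In the sorted repressor replicates this share was 69.4% and 65.5%, and in the sorted PTGR replicates 53.7% and 51.7%. Unsorted libraries had 51.3 to 54.0%. The sorted activator and repressor libraries thus lay above all unsorted libraries, whereas those of the PTGR screen overlapped them. The mean difference was 8.84 percentage points, with an exact permutation p of 0.0278 that became 0.111 after adjustment over the 8 measures. Without the genes called in any screen the difference was -1.24 percentage points. These genes had been called for an excess of sorted insertions in splicing orientation in the same libraries. Leaving them out therefore lowers the sorted share by construction, and this value is no separate test.

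**Figure D1:**
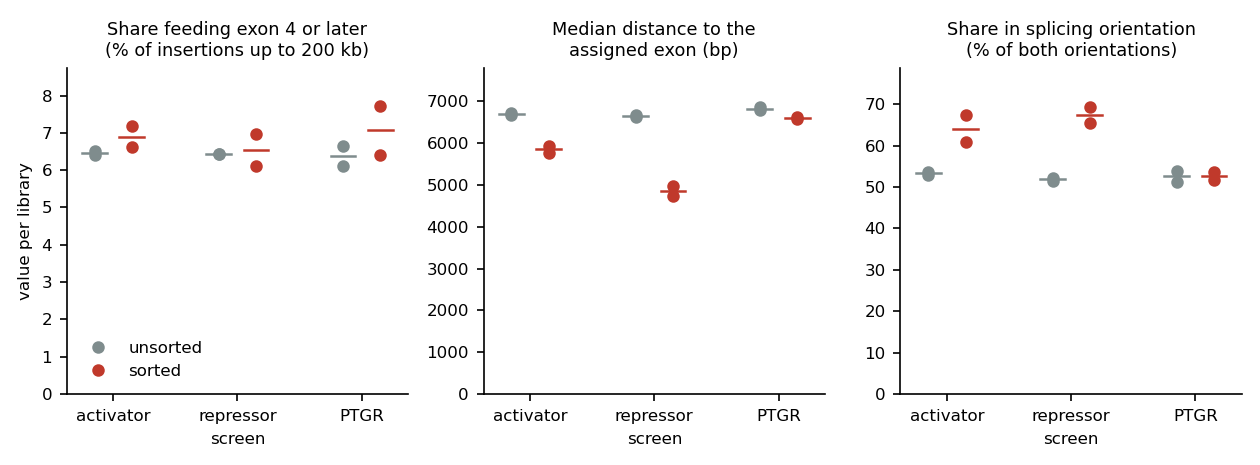
Each point is 1 library, grey for unsorted and red for sorted, with a line at the mean of the 2 replicates. The left axis gives the share of exon 4 or later insertions in percent, the middle axis their median distance to the exon in bp, and the right axis the share in splicing orientation in percent. Sorted medians lay at 6617 bp or below and unsorted medians at 6627 bp or above, and the share in splicing orientation exceeded 60% only in the sorted activator and repressor libraries.

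The exon number and the length of protein lost moved differently by screen. Exon 10 or later took 25.5% and 24.5% of these insertions in the sorted activator replicates, 44.0% and 44.2% in the sorted repressor replicates and 36.6% and 35.6% in the sorted PTGR replicates, against 31.5 to 33.1% in the unsorted libraries. The activator values lay below all unsorted libraries and the values of the other screens above them, and the mean difference of 2.73 percentage points had an exact permutation p of 0.306. Morc1 exon 21 weighed heavily on this measure, and without Morc1 the mean difference was -2.98 percentage points with an exact permutation p of 0.0556. More than 50% of the coding sequence lay upstream for 47.3 to 50.5% of insertions in the sorted libraries and 49.0 to 51.3% in the unsorted ones, with a mean difference of -0.709 percentage points and an exact permutation p of 0.333. Without Morc1 this difference was -5.82 percentage points, at the smallest p that the exact permutation test can give, 0.00926. Leaving out Morc1 was not a planned setting, and the p-values without it were not adjusted over the measures.

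The second comparison asked at which genes these insertions were over-represented after sorting. Exon 4 or later insertions and all other insertions of a gene were tested as separate gene classes with the one-sided Fisher's exact test used for the screens, and a call needed both a log2 odds ratio no lower than 1 and a Benjamini-Hochberg adjusted p under 0.001. In the activator screen 26 of 149 exon 4 or later classes with at least 3 sorted insertions were called, in the repressor screen 30 of 125, and in the PTGR screen 7 of 842. Over all gene classes tested, 5.7%, 9.38% and 0.68% were called in the 3 screens, against 17.4%, 24% and 0.831% of the exon 4 or later classes and 5.03%, 8.55% and 0.666% of the other classes. The demand for 3 sorted insertions favours enriched classes where the background is thin, and without it the called share of exon 4 or later classes was 0.409%, 0.464% and 0.119%, against 0.595%, 0.843% and 0.247% over all classes. edgeR, which takes the spread between libraries into account, was run on the 2 sorted and 2 unsorted libraries of each screen. Its call needed an adjusted p below 0.05 and a log2 fold change of at least 1, so limit and background differed from the Fisher's exact test. It called 16 of 125 (12.8%), 24 of 110 (21.8%) and 3 of 47 (6.38%) exon 4 or later classes, against 4.47%, 7.91% and 2.28% over all classes it tested. At this looser p limit it called every exon 4 or later class that was called by the Fisher's exact test and that it tested, which were 16, 21 and 3. With positions found in 1 library only, 26, 28 and 8 classes were called. The sorted insertions of Cdh2 in the activator screen and Pcnx in the PTGR screen came from 1 replicate each. Without sorted repressor replicate 1, 17 classes were called in that screen.

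Called classes took up very different parts of the sorted material. They held 749 of 2223 exon 4 or later insertions in the sorted activator libraries (33.7%), 1324 of 2478 in the sorted repressor libraries (53.4%) and 560 of 8467 in the sorted PTGR libraries (6.61%). The same genes held 0.853%, 2.42% and 0.732% of such insertions in the background. Insertions of a called class mostly fed 1 exon: the leading exon took at least 90% of the sorted insertions in 34 of the 63 calls and all of them in 24. It was exon 4 in 20 calls and exon 10 or later in 13, and it was also exon 2 or 3 of another transcript in 22. The coding sequence upstream of the leading exon ranged from none, in Mrtfa, to all of it, in Nsmce2, with a median of 34.3%, and exceeded 50% in 20 calls.

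**Figure D2:**
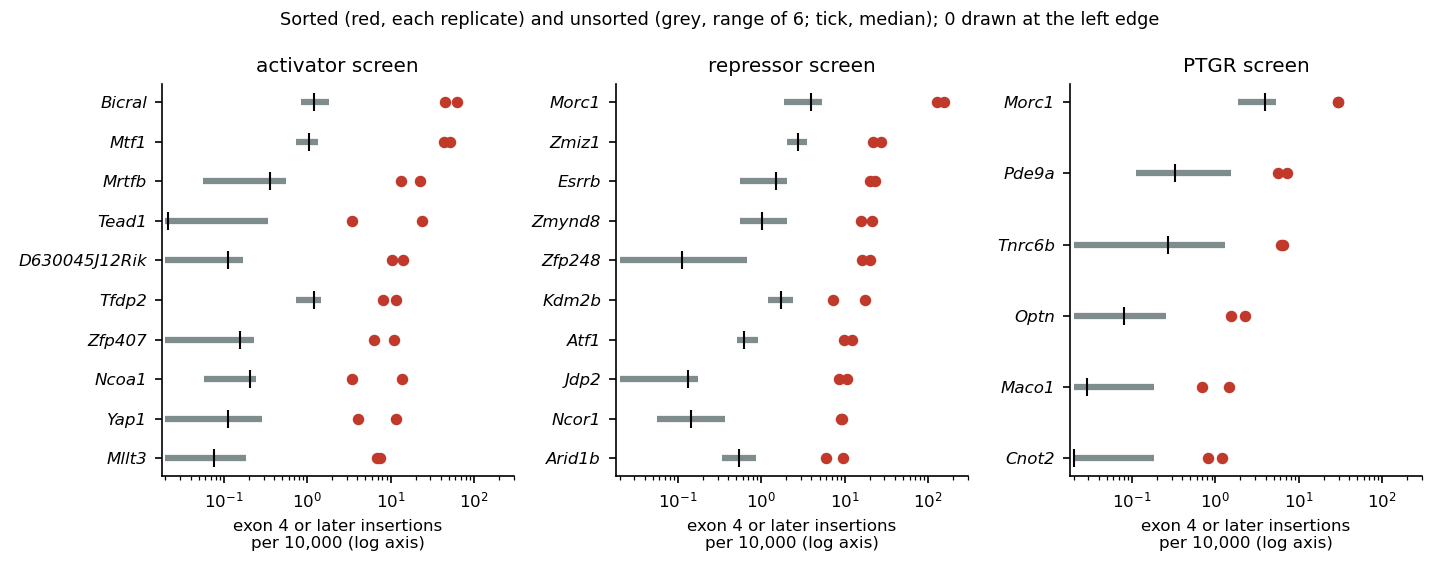
Exon 4 or later insertions per 10000 insertions of the library, on a log axis, for the leading called genes of each screen. Red points are the 2 sorted replicates, grey bars span the 6 unsorted libraries with a tick at the median, and 0 is drawn at the left edge. For every gene shown the sorted replicates lay above the grey bar, from 0.683 (Maco1) to 155 (Morc1) insertions per 10000. The genes were chosen by their calls against these unsorted libraries, with each replicate alone also enriched. Their place above the bar thus follows largely from that choice.

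In the activator screen the classes with the most sorted insertions were those of Bicral and Mtf1. Bicral, a subunit of a BAF chromatin remodelling complex, had 44.8 and 61.9 exon 4 or later insertions per 10000 in the sorted replicates and 0.848 to 1.83 in the unsorted libraries. The difference was 5.42 ± 0.170 as a log2 odds ratio (SE from counting error), with adjusted p-values of 1.5e-170 in the Fisher's exact test and 2.9e-12 in edgeR. Of its 169 sorted insertions 161 fed exon 5, which has 56.9% of the coding sequence upstream. Mtf1, the metal-responsive transcription factor, had 44.3 and 51.0 per 10000 sorted against 0.727 to 1.35 unsorted, with a log2 odds ratio of 5.49 ± 0.182. Here 142 of 152 sorted insertions (93.4%) fed exon 8, against 55.6% of its background insertions of this class. That exon has 48.7% of the coding sequence upstream, so in both genes the leading exon lay near the middle of the protein.

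Other leading classes had lower levels. Mrtfb, a coactivator of serum response factor, had 13.2 and 22.4 insertions per 10000 in the sorted replicates against 0.0570 to 0.555 unsorted, and 54 of its 56 sorted insertions fed exon 4, with 4.71% of the coding sequence upstream. Its relative Mrtfa, and Wwtr1 and Aff4 further on, are named after their values were seen and outside the naming rule. Mrtfa had 5 sorted insertions against 3 in the background. Tead1, the DNA-binding partner of Yap1, had 3.45 and 23.8 per 10000 against 0 to 0.337, with 39 of 41 sorted insertions in front of a very short exon between positions 112856053 and 112856064 of chromosome 7. Yap1 itself had 4.02 and 11.6 per 10000 against 0 to 0.289, and its paralogue Wwtr1 had 4.60 and 8.84 per 10000 against 0 to 0.144. For Yap1 and Wwtr1 the leading exon 5 has 51.7% and 69.2% of the coding sequence upstream. The sorted replicates of Tead1 and Yap1 lay far apart from each other, yet each lay above all unsorted libraries.

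Mllt3, a histone reader of the super elongation complex, had 6.90 and 7.48 insertions per 10000 in the sorted replicates against 0 to 0.185, from a median distance of 40983 bp to exon 6, which is exon 2 in another transcript. Aff1, a scaffold of the complex, had 2.3 and 11.6 per 10000 against 0 to 0.241. Its paralogue Aff4 had 6 sorted insertions and none in the background. With the background set to a floor of 3 insertions over the 6 libraries this is 63.7-fold higher. That value takes the 6 sorted insertions as exact and is no lower bound. A further relative, Aff3, had no sorted insertion of the class and 6 in the background. Ncoa1, a p160 coactivator of nuclear receptors, had 3.45 and 13.6 per 10000 against 0.0574 to 0.241, with 57.8% of the coding sequence upstream of its leading exon 13. Tfdp2, the partner of E2F factors, stood on a higher background, with 11.5 and 8.16 per 10000 against 0.740 to 1.47 and a log2 odds ratio of 3.02 ± 0.286. The uncharacterised gene D630045J12Rik had 10.3 and 14.3 per 10000 against 0 to 0.171, all 39 of them in front of exon 16 of 20, with 84.1% of the coding sequence upstream. Zfp407, a zinc finger gene, completed the 10 leading genes with 6.32 and 10.9 per 10000 against 0 to 0.228.

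In the repressor screen Morc1 stood far above the rest. Morc1 encodes a nuclear ATPase known from transposon silencing in the germ line. It had 155 and 129 exon 4 or later insertions per 10000 in the sorted repressor replicates and 1.88 to 5.31 in the unsorted libraries, for a log2 odds ratio of 5.33 ± 0.0974 (edgeR adjusted p 1.9e-81). This gene alone made up 22.3% and 21.1% of the class in these 2 libraries. Of its 542 sorted insertions 512 fed exon 21, which has 74.3% of the coding sequence upstream.

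The next leading classes of the repressor screen lay well below Morc1. Zmiz1, a coregulator of the PIAS family, had 27.4 and 21.7 per 10000 sorted against 2.05 to 3.56 unsorted (log2 odds ratio 3.20 ± 0.172), and its leading exon 7 was reached from a median of 43883 bp. Esrrb, an orphan nuclear receptor of pluripotent cells, had 22.9 and 20.4 per 10000 against 0.555 to 2.01 (log2 odds ratio 3.88 ± 0.198), with 81 of 82 sorted insertions in front of exon 4. Zmynd8, a reader of histone marks, had 21.1 and 15.8 per 10000 against 0.555 to 2.01. Zfp248, a KRAB zinc finger gene, had 16.2 and 20.4 per 10000 against 0 to 0.678, and all 67 sorted insertions fed exon 4, which has 0.868% of the coding sequence upstream. For Zfp248 the late exon number thus went with a nearly complete protein, whereas for Zmynd8 63.7% of the coding sequence lay upstream of the leading exon 14.

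The other leading repressor genes had lower levels. Kdm2b, a subunit of a Polycomb complex that binds unmethylated CpG islands, had 17.5 and 7.23 per 10000 against 1.2 to 2.43. Atf1, a bZIP factor of the CREB family, had 12.1 and 9.87 per 10000 against 0.513 to 0.904. Jdp2, a bZIP repressor, had 10.8 and 8.55 per 10000 against 0 to 0.172, all in front of its last exon. Ncor1, the nuclear receptor corepressor, had 8.98 and 9.21 per 10000 against 0.0570 to 0.370. Arid1b, a BAF subunit, had 9.43 and 5.92 per 10000 against 0.339 to 0.867. In each of these 5 genes both sorted replicates exceeded the highest unsorted library, which the rule that chose them favours.

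In the PTGR screen Morc1 was again the leading gene, and the only gene called in 2 screens. It had 29.5 and 29.4 insertions per 10000 in the sorted PTGR replicates against 1.88 to 5.31 unsorted (log2 odds ratio 3.02 ± 0.107, edgeR adjusted p 6.3e-07), with 250 of 352 in front of exon 21. The orientation differed between the screens. In the sorted repressor replicates 346 and 196 Morc1 insertions of this class lay in splicing orientation against 2 and 1 reversed. In the sorted PTGR replicates 180 and 172 lay in splicing orientation against 156 and 109 reversed. Reversed Morc1 insertions stood at 25.6 and 18.6 per 10000 in the sorted PTGR libraries, above the 1.58 to 3.33 of the unsorted libraries, whereas they stood at 0.898 and 0.658 in the sorted repressor libraries. Over all 7 calls of the PTGR screen there were 273 reversed sorted insertions, 265 of them in Morc1 and the other 8 in Pde9a. The activator calls had 5 and the repressor calls 14. The part of the reversed insertions in the Morc1 call of the PTGR screen was not tested.

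**Figure D3:**
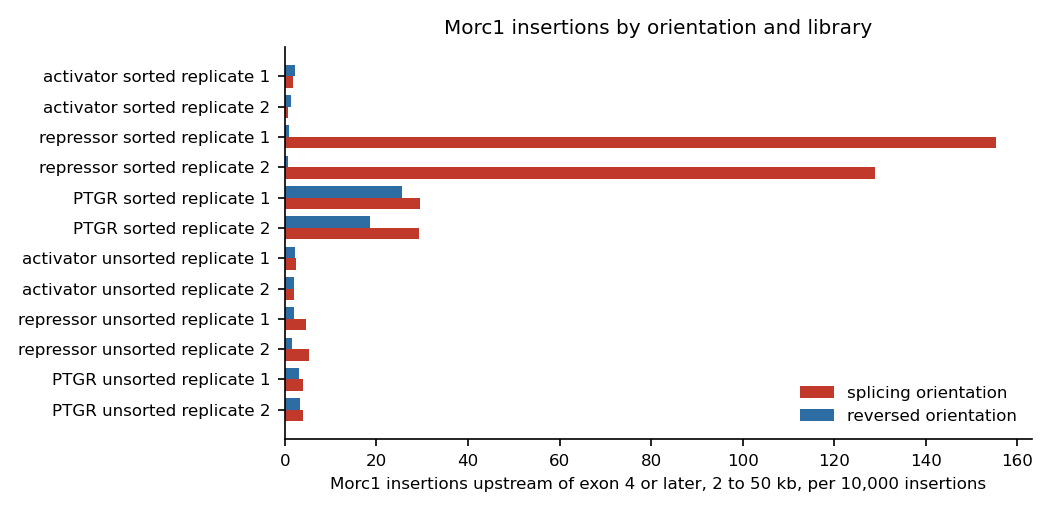
Morc1 insertions that met the exon and distance limits, per 10000 insertions, in each of the 12 libraries. Red bars are insertions in splicing orientation and blue bars insertions in reversed orientation. The sorted repressor libraries had 155 and 129 in splicing orientation with fewer than 1 reversed, whereas the sorted PTGR libraries had 29.5 and 29.4 with 25.6 and 18.6 reversed.

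The other PTGR calls included a pair of known mRNA regulators. Tnrc6b, a GW182 protein that links Argonaute to deadenylation, had 6.40 and 6.15 per 10000 sorted against 0 to 1.29 unsorted (log2 odds ratio 4.33 ± 0.305, edgeR adjusted p 2.7e-06), and 48 of 75 sorted insertions fed exon 5, with 2.08% of the coding sequence upstream. Cnot2, a subunit of the CCR4-NOT deadenylase, had 0.820 and 1.2 per 10000 against 0 to 0.185. Pde9a, a cyclic GMP phosphodiesterase, had 7.22 and 5.64 per 10000 against 0.113 to 1.54, and all 77 sorted insertions fed exon 5. Optn, an autophagy receptor, had 2.3 and 1.54 per 10000 against 0 to 0.257. Maco1, a transmembrane protein, had 1.48 and 0.683 per 10000 against 0 to 0.185. Unsorted PTGR libraries held 21 of the 32 Tnrc6b, 38 of the 56 Pde9a and all 5 Cnot2 background insertions. With the unsorted PTGR libraries alone as background 4 of the 7 classes were called, and Cnot2 and Maco1 were not among them.

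Taken over all insertions of a gene, 132, 192 and 62 genes were called in the activator, repressor and PTGR screens (4.64%, 8.18% and 0.666% of those tested). Insertions of the class made up 50% or more of the sorted insertions in 7, 9 and 2 of these genes. Without such insertions 4, 7 and 6 of them would not have been called. In the activator screen the 4 were Cfap300 (a neighbour of Yap1 on chromosome 9), Ncoa1, Stat2 and Zfp407, and in the repressor screen they were Bcor, Cecr2, Lin54, Nsmce2, Sobp, Vmn2r57 and Zmiz1. In the PTGR screen they were Casc3, Dhx35, Pde9a, Sfi1, Ssc5d and Tdrd3, of which Pde9a alone was called as an exon 4 or later class. Conversely, some exon 4 or later classes were called at genes that missed the call over all insertions, named here after their values were seen. They included Cdh2 and Sox10 in the activator screen, Mga, Nol4l, Recql5 and Zfp462 in the repressor screen, and Pcnx in the PTGR screen. Mga, a MAX-binding scaffold of a Polycomb complex, had 3.14 and 3.29 exon 4 or later insertions per 10000 against 0 to 0.0565, while its log2 odds ratio over all insertions was 0.59.

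The third comparison kept the gene fixed and asked whether its sorted insertions fell in the exon 4 or later class more or less often than its own background insertions. The rest of a gene's insertions were all those within 200 kb outside the class. They included insertions that fed exon 4 or later from within 2 kb or from beyond 50 kb. A shift can thus be one of distance without a change of exon. Counts against exon 2 or 3 in the same distance window are given in the last section. In the activator screen 11 of 177 genes moved toward exon 4 or later (6.21%) and 8 away (4.52%) at an adjusted p below 0.05 in a two-sided Fisher's exact test. In the repressor screen 19 of 173 moved toward (11%) and 9 away (5.2%), and in the PTGR screen 2 of 1804 moved toward (0.111%) and 3 away (0.166%). An edgeR interaction model also called 10 of the 11 and all 8 in the activator screen, 18 of the 19 and all 9 in the repressor screen, and 1 of the 2 and 1 of the 3 in the PTGR screen. That model used all 6 unsorted libraries. With a replicate block over same-numbered libraries, only the unsorted libraries of the screen were used, so block and background changed together. This blocked model tested 146, 144 and 1460 genes in the activator, repressor and PTGR screens. It called 1, 0 and 0 genes toward and 1, 0 and 0 away in edgeR, with 6, 11 and 8 toward and 4, 7 and 6 away at an unadjusted p below 0.05. Of the genes named here, Ncoa1 (adjusted p 0.0053 with the block in edgeR) and Atxn7 (8.8e-05) passed in the activator screen, whereas Tead1, Mrtfb, D630045J12Rik and Crebbp had 0.963 and Aff1 0.111. Esrrb, Ncor1 and Mga had 0.162 in the repressor screen. These counts moved when single libraries were left out. Without sorted activator replicate 1 or 2, 7 and 4 genes moved toward in that screen, and without replicate 2, 2 moved away. Without sorted repressor replicate 1, 4 genes moved toward and 5 away. In the PTGR screen no gene moved away without sorted replicate 2 (12 at an unadjusted p below 0.05) and 1 did without unsorted activator replicate 2, and 1 gene moved toward without unsorted activator replicate 2, unsorted repressor replicate 1 or unsorted PTGR replicate 1.

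Genes that moved toward exon 4 or later in the activator screen included Ncoa1. Of the Ncoa1 insertions in the activator screen 42.9% and 80.0% fed exon 4 or later in the sorted replicates against 1.09 to 6.58% in the unsorted libraries (adjusted p 4.5e-21 in the Fisher's exact test). For Tead1 these shares were 25% and 43.8% against 0 to 31.8%, for D630045J12Rik 52.9% and 46.7% against 11.1 to 28.6%, and for Mrtfb 74.2% and 62.3% against 11.1 to 60.0%. Aff1 had 11.8% and 36.2% against 0 to 4.95%. Crebbp, the CBP acetyltransferase, had 5.88% and 16.7% against 0 to 2.70%, all of them in front of exon 4. Tead1 overlapped its unsorted libraries, and the other 5 genes did not.

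In the repressor screen the genes with the most sorted insertions that moved toward were Morc1, Jdp2, Ncor1, Zmynd8 and Esrrb. Esrrb had 63.0% and 62.0% of its sorted insertions at exon 4 or later against 22.6 to 49.4% unsorted, with an adjusted p of 4.2e-06 in the Fisher's exact test. Ncor1 had 7.81% and 10.3% against 0.662 to 5.26%. Jdp2 had 7.79% and 11.4% against 0 to 3.57%. Zmynd8 had 22.1% and 22.9% against 4.76 to 19%, and Morc1 73.8% and 73.1% against 49.5 to 70.7%, so that both genes lay only just above the highest unsorted library. Mga, which was singled out after its values were seen, had 53.8% and 62.5% against 0 to 1.43% (adjusted p 7.1e-13 in the Fisher's exact test).

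Other genes moved away from exon 4 or later. Atxn7, a SAGA subunit, had 24 sorted activator insertions of which none fed exon 4 or later, against 71.7% of its 46 background insertions. Relb, an NF-κB subunit, had 9.09% and 7.37% against 20.8 to 50.0%, although its exon 4 or later class was itself called, with 13 sorted insertions against 19 in the background. Fbxl19, which binds CpG islands, had 4.17% and 1.35% against 16.7 to 33.3%. Aff3 had none of 78 sorted insertions in the class against 14.3% of the background, with unsorted libraries from 0 to 44.4%. In the repressor screen Kdm2b had 21% and 11.8% against 32.7 to 56.5%, and Atf1 22.5% and 20.5% against 32.6 to 50.0%, and both were called in the class as well. Zfp423, Smarcad1 and Rnf220 had at most 1 sorted insertion of the class each among 152, 275 and 401, against unsorted shares of 4.71 to 16.5%, 0 to 8.11% and 0.602 to 5.37%. Aff3 and Smarcad1 thus overlapped their unsorted libraries. In the PTGR screen Smg9 had none of 130 and Smg1 had 2 of 117, against 16.0% and 14.9% in the background, with at least 1 unsorted library at 0 for each, and both encode parts of the kinase complex of nonsense-mediated decay. Eif4e2, a cap-binding translation repressor, had 21.3% and 18.5% against 35.1 to 54.2%. The unsorted PTGR libraries held 1 of the 13 Smg9 and 2 of the 23 Smg1 background insertions of the class, and with these libraries alone as background no PTGR gene moved away (12 at an unadjusted p below 0.05 in the Fisher's exact test). In the edgeR interaction Smg9 kept an adjusted p of 0.0023, whereas Smg1 had 0.107 and Eif4e2 0.117, and with the replicate block none of the 3 passed.

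**Figure D4:**
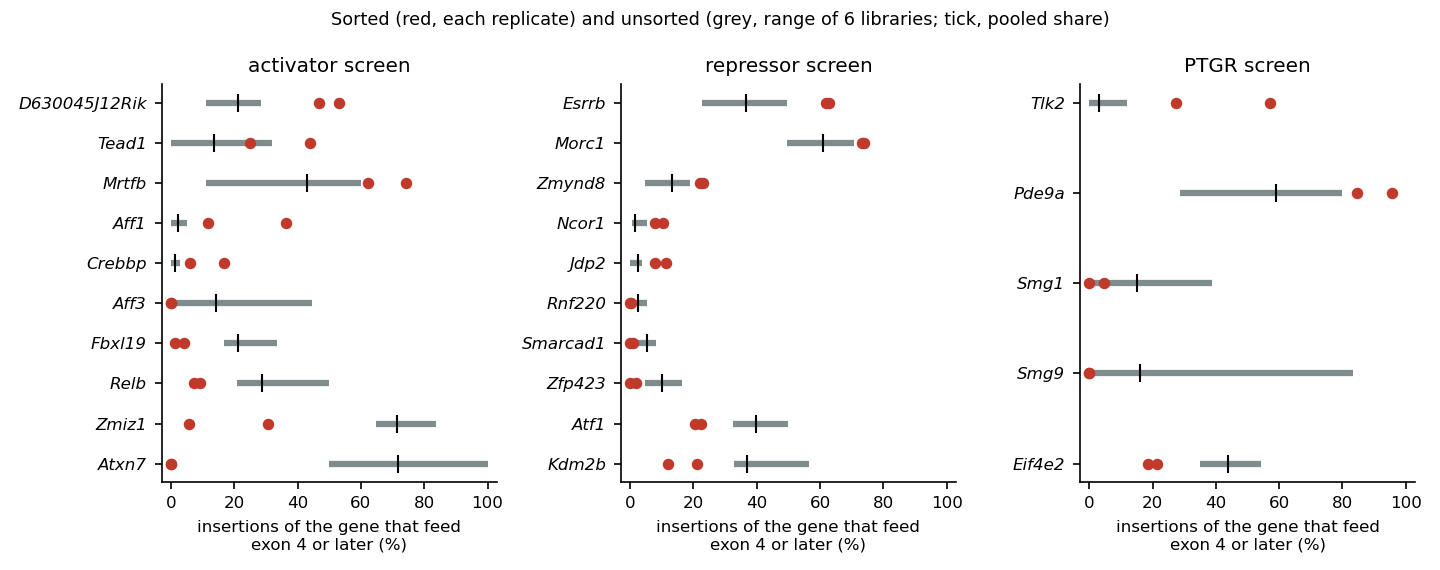
For the genes with the most sorted insertions among those whose insertions shifted, the percentage of the gene's insertions that fed exon 4 or later at 2 to 50 kb. Red points are the 2 sorted replicates, grey bars span the 6 unsorted libraries and ticks give their pooled share. Atxn7 stood at 0 in both sorted replicates against a pooled background of 71.7%, and Pde9a stood at 95.7% and 84.6% against 58.9%.

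Gene groups with known roles were read through the same class. Of all exon 4 or later classes that reached 3 sorted insertions in the activator screen, 17.4% were called. Without that minimum the share was 0.409%. The counts of single lists are too small to set firmly against these shares. Among 28 BAF genes 16 had background insertions feeding exon 4 or later, 3 reached 3 sorted activator insertions and 2 were called, Bicral and Bicra. Of 5 p300, CBP and p160 genes, all with background insertions, 2 were called, Ncoa1 and Crebbp. Of 32 Mediator genes 10 had background insertions and Med15 alone was called, with 6 sorted insertions against 2. Among 17 genes of the COMPASS H3K4 methyltransferases and 30 of SAGA and TFIID, no class reached 3 sorted insertions, although 7 and 5 of these genes were called over all insertions. As whole lists they had 0.623 and 0.623 sorted insertions of the class per 10000, against 0.528 and 0.812 in the background. Kmt2c, an H3K4 methyltransferase, had 1 sorted insertion of the class out of 170.

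The repressor lists showed the same contrast. No class of 16 genes for HP1 and H3K9 methylation reached 3 sorted insertions, although 10 of these genes were called over all insertions. Atf7ip, a partner of the H3K9 methyltransferase Setdb1, had 2 insertions of the class among 560. Of 35 Polycomb genes Kdm2b alone was called. Among 464 genes with zinc finger symbols 81 had background insertions of the class, 7 reached 3 sorted insertions and 3 were called, Zfp248, Zfp462 and Zfp568, against 58 called over all insertions. Zbtb38, with 17 sorted insertions against 201 in the background, stood at 1.21 on the log2 odds ratio scale (adjusted p 0.0185 in the Fisher's exact test), which did not reach the threshold, while edgeR gave an adjusted p of 0.00018. edgeR called 5 zinc finger classes in all.

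Of the PTGR lists 2 of 5 held a call, where 0.831% of all exon 4 or later classes tested in this screen were called. Cnot2 was called among 15 CCR4-NOT genes, with Cnot10 at 6 sorted insertions against 13 and an adjusted p of 0.234. Tnrc6b was called among 8 microRNA effectors. Its relative Tnrc6c had 6 sorted insertions against 5 (adjusted p 0.0308) and Tnrc6a 2 against none. No class was called among 10 genes of nonsense-mediated decay, 14 of decapping and cap binding and 18 of mRNA destabilisation in the Fisher's exact test, nor in edgeR. Of these lists 3 classes were tested, Smg6 (adjusted p 0.930 in the Fisher's exact test), Eif4e2 (0.893) and Dcp1a (0.252). The median log2 odds ratio of the tested classes was 6.05 for the p300, CBP and p160 genes (2 classes), 6.58 for Mediator (1), 5.42 for BAF (3), 2.97 for Polycomb (1) and 3.45 for the zinc finger symbols (7). It was 3.17 for CCR4-NOT (2), 3.84 for the microRNA effectors (2), 0.07 for nonsense-mediated decay (1) and 0.91 for decapping and cap binding (2). Over all tested exon 4 or later classes it was 0.69, 1.07 and 0.33 in the activator, repressor and PTGR screens. The list medians rest on few classes, all of which had passed the minimum of 3 sorted insertions. None of 95 ribosomal protein genes, kept as a reference, reached 3 sorted insertions of the class in any screen.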

How the data were processed

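Genomic DNA of sorted and unsorted pools was cut, circularised and amplified from the cassette, and 12 lists of insertion positions were analysed. According to the study's methods the authors trimmed reads with Trim Galore (0.6.0), aligned them to mm10 with Bowtie2, and filtered out low mapping qualities and duplicates with SAMtools (1.9). Exons were assigned as the nearest one downstream in a protein-coding gene, first exons excluded. The authors deposited, per insertion, a coordinate, exon number and distance, without read counts, and gene tables with pooled counts per gene, used here only as a check: own counts were equal at 20407, 20400 and 16180 of 20409 genes for the sorted activator, repressor and PTGR pools. The authors' columns of odds ratios and adjusted p-values were not used. The unsorted repressor lists consisted of repeats for 50.0% of their lines, and 12.8% of the lines of sorted PTGR replicate 2 were repeats, so that unique positions were counted.

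Exon coordinates came from GENCODE vM21 (GRCm38), where 99.8% of positions matched an acceptor of the listed gene. A level is the number of insertions of the class per 10000 insertions within 200 kb of the same library. For classes, Fisher's exact test was run one-sided, 2 sorted libraries against 6 unsorted ones, adjusted by Benjamini-Hochberg over all classes, genes by a two-sided test with at least 10 insertions on each side, and library measures by exact permutation (SciPy 1.17.1). The Fisher tests leave out the spread between libraries, which edgeR 4.0.16 (quasi-likelihood) and DESeq2 1.42.0 (R 4.3.3) took into account in alternatives. The edgeR class test and the edgeR interaction, both without a replicate block, were also run on simulated counts. DESeq2 and the edgeR models with a replicate block were not. Intervals, standard errors and floors cover counting error only. Replicates were separate libraries whose positions partly overlap, so p-values may rest in part on shared cells. Same-numbered libraries deviated together with correlations of 0.07, -0.03 and 0.35 in the activator, repressor and PTGR screens, and the main tests did not take the numbers as pairs. In the activator screen sorted replicates 1 and 2 shared 5.04% and 19.5% of positions with the same-numbered unsorted library, against 2.24% and 1.13% with the other. In the PTGR screen these shares were 16.9% and 6.89% against 0.340% and 2.02%. Both sorted repressor replicates shared more with unsorted replicate 2. Tests without a replicate block leave out this link.

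Genes were named by rule: the 10 called classes per screen with the most sorted insertions, each replicate alone also reaching a log2 odds ratio of 1, up to 5 shifted genes per direction, the 5 genes with most background insertions, and up to 3 genes per list. Other genes were named after their values were seen. The members and lists were chosen with earlier results of these data known. Results of 1 list and 1 named gene are not reported here.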

Additional observations from a re-analysis of the deposited data

Results flagged for a closer look

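For 36 values, each measured in the 6 unsorted libraries, 2 had a library far from the other 5, where chance alone gives about 1 in 20. Pde9a had 1.54 exon 4 or later insertions per 10000 in unsorted PTGR replicate 1, far above the other 5 libraries, and this library shares positions with sorted PTGR replicate 1. Tead1 had 0.337 per 10000 in unsorted activator replicate 2, which shares positions with sorted activator replicate 2.

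The share of a gene's sorted insertions that fed exon 4 or later was compared directly between screens, a test chosen after the data had been seen, with 325 two-sided Fisher's exact tests adjusted together. The 10 differences below an adjusted p of 0.05 concerned 8 genes. Zmiz1 moved in opposite directions: 16.1% of its sorted activator insertions were in the class against 88.7% in the repressor screen (adjusted p 1.2e-11, Fisher's exact test) and 67.3% in the PTGR screen (adjusted p 0.00052), with 71.2% in the background. Ncoa1 had 66.7% in the activator screen against 4.62% in PTGR, and Aff1 had 25.9% against 0. Setd1b, an H3K4 methyltransferase, had 0.0 of 477 in the activator screen and 4 of 47 in the PTGR screen. Nol4l had 7.14% in the activator, 61.5% in the repressor and 10.3% in the PTGR screen. Between the repressor and PTGR screens Morc1 had 73.5% and 54.5%, Mga 57.1% and 0, and Zfp462 61.9% and 3.85%.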

How the results depend on the processing

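Direction and side of the threshold (for counts, a value within 1.5 times) were kept in 291 of 361 recomputed summary values and in 374 of 378 values of single genes. Among the latter, Maco1 and Cnot2 lost their call with the same-screen background (2.65 and 2.53 on the log2 scale), Maco1 without sorted PTGR replicate 1 and Cnot2 without replicate 2. The cause was not tested for any change given here. For the share of exon 4 or later insertions, the sorted minus unsorted difference over 3 screens was -0.355 points with the denominator restricted to 2 to 50 kb, 0.568 points (exact permutation p 0.0370) with distances up to 20 kb and -0.0821 without Morc1, and 0.197 to 0.631 with 1 library left out. In single screens it was -0.267 (activator) and -2.10 (repressor) with that denominator and -1.17 (repressor) without Morc1. Without called genes the median distance differed by 165 bp, the median exon number by -0.333, the median coding sequence upstream by -2.78 and the share with more than 50% upstream by -2.87 points, and the sense share by -1.24 points. With positions of 1 library only the exon number, median coding sequence and that share differed by -0.333, -2.65 and -2.31, and without Morc1 by -0.667, -3.77 and -5.82, with -2.98 points for exon 10 or later. The exclusion of Morc1 was not planned. Called genes were chosen from the same libraries, so values without them are no separate tests.

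With a replicate block over same-numbered libraries the sense share difference of 8.84 points had an exact permutation p of 0.0625. The block otherwise left class calls at 16, 24 and 3, as without it, in edgeR. In the activator screen 16 classes were called by edgeR with either scaling and 17 by DESeq2. In the repressor screen 47 were called at an adjusted p below 0.05, 2 by edgeR without a filter and 17 to 30 with 1 library left out. In the PTGR screen 4 were called with the same-screen background, 20 at 0.05, 11 with every line counted, 3 by edgeR (either scaling, with or without block) and DESeq2, and 4 without a filter, and genes called over all insertions numbered 40 and 121 with that background and threshold. Shifts toward exon 4 or later numbered 4, 9 and 0 with the same-screen background (25 at an unadjusted p below 0.05 in the PTGR screen), and 1, 0 and 0 in the edgeR interaction with a replicate block (6, 11 and 8 unadjusted). Shifts away numbered 5 and 0 in the activator and PTGR screens with that background (8 and 12 unadjusted) and 1, 0 and 0 with the block (4, 7 and 6 unadjusted). Activator shifts toward and away numbered 7 and 5 with at least 5 insertions and 5 and 4 against exon 2 or 3 in the same window. Repressor shifts away numbered 15 with at least 20 insertions or the unblocked edgeR interaction and 17 against exon 2 or 3. PTGR shifts toward numbered 1 with at least 20 insertions, 4 against exon 2 or 3, 5 with every line and 1 in the unblocked interaction, where shifts away numbered 1. With 1 library left out, shifts toward ranged from 4 to 11, 4 to 19 and 1 to 3, and away from 2 to 9, 5 to 10 and 0 to 3.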
